A study of Mus musculus with 8 samples.

Results

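The HoxD cluster holds 9 of the Hox genes of the mouse, Hoxd1, Hoxd3, Hoxd4, Hoxd8, Hoxd9, Hoxd10, Hoxd11, Hoxd12 and Hoxd13, on chromosome 2. They were taken as the array probes whose RefSeq accession belongs to these genes, which gave 10 probes for 9 genes, with 2 probes for Hoxd11, out of 36799 genes and other targets on the array. The 8 arrays hold RNA from P0 back skin epidermis of C57BL/6 mice, 4 EED cKO and 4 control, each hybridized against Universal Mouse Reference RNA. In EED cKO mice (K14-Cre; EED flox/flox) the Cre is driven by the keratin 14 promoter of basal keratinocytes, so cells that do not descend from them are not its targets, while Merkel cells, which arise from keratin 14 cells, are. No alleles are given for the controls in the sources used here. Dyes were swapped, with the epidermal RNA in Cy3 for odd replicate numbers and in Cy5 for even ones. All 8 arrays were on 1 slide, with EED cKO in row 1 and control in row 2, so genotype and slide row cannot be told apart. The labels call the samples biological replicates and do not say more of their source.

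Hox genes encode homeodomain transcription factors that give cells their position along the body axes, and their order on the chromosome follows the order in which they are used from the head toward the tail. Low gene numbers lie at the anterior end of a cluster, high numbers at the posterior end, and genes of the same number in the HoxA, HoxB, HoxC and HoxD clusters are paralogues. Polycomb repressive complex 2 (PRC2), of which EED is a core subunit, places methyl groups on lysine 27 of histone H3, and Hox clusters are its best known sites of action. Posterior HoxD genes are known for their part in limb, digit and genital development.

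Eed itself was measured first, as a check of the labels. Its log2 ratio of sample over reference was -1.74, -2.04, -1.78 and -1.66 on the 4 EED cKO arrays and -0.18, -0.46, -0.31 and -0.43 on the 4 control arrays. The groups did not overlap, and the log2 fold change was -1.46 ± 0.09 (SE, n = 4 and 4, limma adjusted p = 2.14e-05). The tissue label was checked with 9 keratinocyte genes, whose mean log2 ratio was 3.17 to 3.71 in EED cKO and 3.00 to 3.65 in control. Across the 23139 targets that passed the filter, 255 were higher in EED cKO and 23 lower (at least 2-fold, with an adjusted p below 0.05), and with median centring in place of loess the counts were 156 and 56.

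The starts of the HoxD genes differ in base composition, and the 250 bases before the start are shown for the 2 genes past 2-fold, Hoxd8 and Hoxd9, for Hoxd13, which lies at the posterior end of the cluster, and for Hoxd1 at the anterior end, whose probe was not well above background on any array. The sequences are the plus strand of RefSeq's GRCm38.p6, read 5′ to 3′, and each CG dinucleotide is in capitals.
Hoxd13, chr2:74667975-74668224: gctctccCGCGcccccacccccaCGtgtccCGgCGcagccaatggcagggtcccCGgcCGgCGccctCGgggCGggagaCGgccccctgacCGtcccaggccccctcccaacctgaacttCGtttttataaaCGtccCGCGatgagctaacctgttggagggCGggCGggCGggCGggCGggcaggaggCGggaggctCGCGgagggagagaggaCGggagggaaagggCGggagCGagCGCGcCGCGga
Hoxd9, chr2:74697513-74697762: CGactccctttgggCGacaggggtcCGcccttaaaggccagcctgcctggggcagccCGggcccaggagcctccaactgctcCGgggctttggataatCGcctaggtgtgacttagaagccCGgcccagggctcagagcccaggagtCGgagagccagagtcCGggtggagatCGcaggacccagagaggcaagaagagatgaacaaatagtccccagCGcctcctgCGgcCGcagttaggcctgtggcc
Hoxd8, chr2:74704365-74704614: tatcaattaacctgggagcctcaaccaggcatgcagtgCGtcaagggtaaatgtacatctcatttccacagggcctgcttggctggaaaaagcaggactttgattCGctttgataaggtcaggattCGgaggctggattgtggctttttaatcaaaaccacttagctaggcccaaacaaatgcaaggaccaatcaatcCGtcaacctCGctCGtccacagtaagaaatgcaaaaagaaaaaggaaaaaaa
Hoxd1, chr2:74762730-74762979: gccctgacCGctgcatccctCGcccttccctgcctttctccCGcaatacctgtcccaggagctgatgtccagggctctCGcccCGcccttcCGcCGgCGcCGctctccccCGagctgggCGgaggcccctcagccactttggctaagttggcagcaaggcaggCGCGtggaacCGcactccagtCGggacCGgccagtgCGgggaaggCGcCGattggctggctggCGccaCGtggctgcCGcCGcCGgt
The motif searched was CG, which reads the same on both strands, and 92.1% of all 32851 promoter windows of this length hold it at least once. The window of Hoxd13 holds 31 of them, a number reached by 5.19% of all windows, and that of Hoxd1 holds 24, reached by 12% of windows. The window of Hoxd9 holds 13, reached by 31.5% of windows, and that of Hoxd8 holds 6, which is also the median of all windows. The other windows, which were found for all 9 genes, held 20 for Hoxd10, 12 for Hoxd3, 10 for Hoxd12, 3 for Hoxd4, and 2 and 20 for the 2 starts listed for Hoxd11. The counts were not set against the measured changes by a test.

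Of the 9 genes, 6 were measured well above background in EED cKO epidermis and all 6 were higher there than in control. Hoxd8 was 4.60-fold and Hoxd9 4.09-fold higher, while Hoxd4, Hoxd10, Hoxd11 and Hoxd13 passed the test with changes below 2-fold on this scale. Hoxd8 alone passed the filter in both genotypes. The other 5 passed it only through EED cKO, the genotype in which they are high, so that their being higher was in part fixed by the filter. Hoxd1, Hoxd3 and Hoxd12 were at or near background in both genotypes and were not tested. No HoxD gene was lower at any fold by limma, also at an unadjusted p below 0.05, or by the methods' t-test. Of all targets tested, 1.1% were higher by at least 2-fold with an adjusted p below 0.05, 0.0994% were lower by the same rule, and 11.8% were higher and 9.95% lower at an adjusted p below 0.05 with no fold limit. The median log2 fold change was 0.65 for the 6 genes tested and 0.02 for all targets tested. The filter asked for 3 of 4 arrays of a genotype well above background, and the count and median of the 6 genes are a description for that reason. In bulk epidermis, more cells that carry an RNA and more RNA per cell cannot be told apart.

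**Figure D1:**
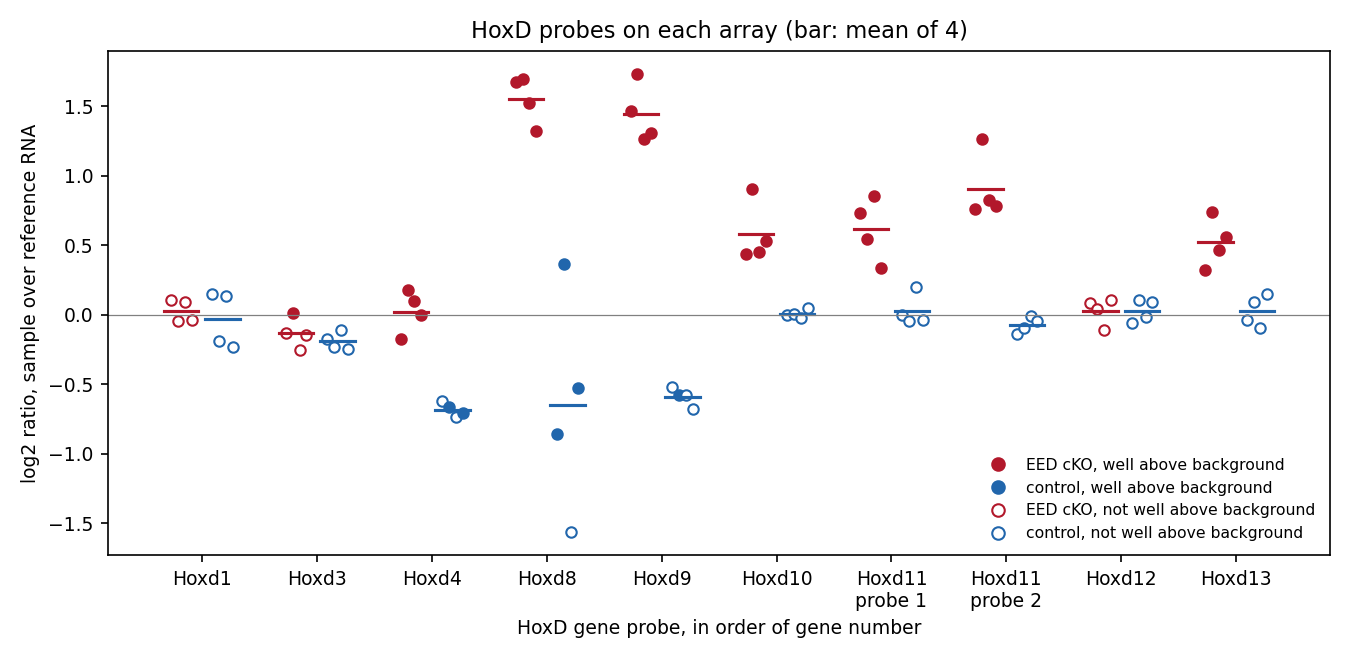
Log2 ratio of sample over reference RNA (vertical axis) of the 10 HoxD probes (horizontal axis) on each of the 4 EED cKO (red) and 4 control (blue) arrays, with a bar at each mean. Filled points had a sample signal well above background and open points did not. For Hoxd8 and Hoxd9 every EED cKO array lies above 1.2 and every control array below 0.4, while for Hoxd1, Hoxd3 and Hoxd12 the groups overlap near 0.

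Of the anterior genes, Hoxd1 and Hoxd3 were at or near background. Hoxd1, at the 3′ end of the cluster, had log2 ratios of 0.11, -0.04, 0.09 and -0.04 in EED cKO and 0.15, -0.19, 0.13 and -0.23 in control. The sample signal minus the local background was -1 to 25 scanner units over the 8 arrays, the groups overlapped, and the probe was well above background in neither the sample nor the reference channel of any array. Hoxd3, which acts in the neck vertebrae, had log2 ratios of -0.13, 0.01, -0.25 and -0.14 in EED cKO and -0.17, -0.23, -0.11 and -0.25 in control. Its groups overlapped too, and the sample was well above background on 1 array, EED cKO replicate 2, although the reference RNA was well above background on all 8 arrays. The unfiltered fit gave log2 fold changes of 0.06 ± 0.06 for Hoxd1 and 0.06 ± 0.07 for Hoxd3 (SE, limma adjusted p = 0.645 and 0.708). Such signals near background do not show that the genes are silent or that they did not change.

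Hoxd4, a neighbour of Hoxd3 that also acts in the neck region, was the only anterior HoxD gene with a measurable signal. Its log2 ratios were -0.17, 0.18, 0.10 and 0.00 in EED cKO and -0.62, -0.66, -0.74 and -0.71 in control. The lowest EED cKO array lay 0.44 above the highest control array, and control was well above background on replicates 2 and 4. The log2 fold change was 0.71 ± 0.09 (SE, limma adjusted p = 0.00101), or 1.63-fold. On the arrays with the sample in Cy3 alone, 2 against 2, it was 0.64 with an adjusted p of 0.0646.

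Hoxd8 was the HoxD gene best measured in control and had the widest spread there. The gene lies in the middle of the cluster and is used in the trunk. Its log2 ratios were 1.68, 1.70, 1.53 and 1.32 in EED cKO and -0.86, 0.37, -1.57 and -0.53 in control. All 4 EED cKO arrays were above all 4 controls by at least 0.96, but the controls ranged over 1.93, with replicate 2 highest and replicate 3 lowest. The background-subtracted signals were 409 to 755 scanner units in EED cKO and 52, 293, 32 and 130.5 units in control replicates 1 to 4, and replicate 3 was not well above background. The log2 fold change was 2.20 ± 0.28 (SE, limma adjusted p = 0.00134). Within the arrays with the sample in Cy3 it was 2.81 (adjusted p = 0.00604) and within those with the sample in Cy5, which hold the highest control, it was 1.59 (adjusted p = 0.0276).

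Hoxd9, which acts in the limb and the lumbosacral skeleton together with its paralogues, was also past 2-fold. Its log2 ratios were 1.47, 1.73, 1.27 and 1.31 in EED cKO and -0.52, -0.58, -0.58 and -0.68 in control, so that the groups were 1.79 apart at their nearest arrays. The signals were 113 to 239 units in EED cKO and 8 to 24.5 units in control, where replicate 2 was the only array well above background. The log2 fold change was 2.03 ± 0.11 (SE, limma adjusted p = 7.35e-06). The narrow spread of the controls cannot be read as such, since 3 of the 4 were not well above background and the Feature Extraction log ratio gave -3.28, -1.70, -3.26 and -2.61 for them. The exact permutation test over the 8 arrays gave p = 0.0286, two-sided, for each of Hoxd4, Hoxd8, Hoxd9, Hoxd10, Hoxd11 and Hoxd13, which is the smallest p that 4 against 4 arrays can give. With the arrays paired by replicate number the exact p for each of these 6 genes was 0.125, the smallest that 4 pairs can give.

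The posterior genes Hoxd10, Hoxd11 and Hoxd13, known for patterning of the limb, were dim in EED cKO epidermis and not well above background on any control array, so their changes are given as bounds. The log2 ratios of Hoxd10 were 0.43, 0.90, 0.46 and 0.53 in EED cKO and 0.00, 0.00, -0.02 and 0.05 in control. Those of Hoxd13, the most posterior gene, were 0.32, 0.74, 0.47 and 0.56 in EED cKO and -0.04, 0.09, -0.09 and 0.15 in control. For both genes every EED cKO array was well above background and above every control array, and for both EED cKO replicate 2 was the highest. Hoxd10 was at least 1.42-fold higher (limma adjusted p = 0.00347) and Hoxd13 at least 1.30-fold higher (limma adjusted p = 0.00216). A bound is the EED cKO mean over the mean of the higher of the control signal and the lowest signal well above background on that array, in the sample channel after loess and Aquantile normalization. The bounds hold for this scaling only, and the p-values beside them test a difference from 0. Median centring gave log2 fold changes of 0.425 for Hoxd10, 0.388 for Hoxd11 and 0.373 for Hoxd13. The bounds are 0.509, 0.574 for the first Hoxd11 probe, and 0.375 on the log2 scale, so these values fell below them. On the Cy3 arrays alone, 2 against 2, the adjusted p of limma was 0.0762 for Hoxd10 and 0.0878 for Hoxd13. By the methods' t-test the adjusted p was 0.0505 for Hoxd10, 0.062 for Hoxd11 and 0.0585 for Hoxd13.

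Hoxd11 was measured by 2 probes that agreed in direction and differed in size. The bounds given for them are again for normexp and loess only. The first probe, brighter over both channels together but not in the sample channel alone, had log2 ratios of 0.73, 0.54, 0.85 and 0.34 in EED cKO and 0.00, -0.05, 0.20 and -0.04 in control, and was at least 1.49-fold higher (limma adjusted p = 0.00216). The other probe had log2 ratios of 0.76, 1.26, 0.83 and 0.78 in EED cKO and -0.14, -0.09, -0.01 and -0.04 in control, and was at least 1.71-fold higher (limma adjusted p = 0.000591 with each probe fitted on its own). Neither probe overlapped between the genotypes. The nearest arrays were 0.14 apart for the first probe and 0.77 for the other. In EED cKO replicate 2 the second probe was far above the other 3 arrays of its genotype while the first was not, so the order of the arrays differed between 2 probes of the same gene.

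Hoxd12 lies between Hoxd11 and Hoxd13 but was not well above background on any of the 8 arrays. Its log2 ratios were 0.08, 0.04, -0.11 and 0.11 in EED cKO and -0.06, 0.11, -0.02 and 0.09 in control. The signals were 1.5 to 16 units in EED cKO and 3.5 to 20 units in control, and the groups overlapped completely. The unfiltered log2 fold change was 0.00 ± 0.06 (SE, limma adjusted p = 0.999).

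Over the cluster, 6 of the 9 genes and 7 of the 10 probes had all 4 EED cKO arrays above all 4 controls, a pattern that 9.65% of all targets tested showed. The 9.65% is of targets that passed the filter, while the 9 genes and 10 probes include some that did not. Of the 6 genes, 5 passed it only through EED cKO, so their separation was in part fixed by the filter. The changes of the 6 genes were not ranked, since 3 are bounds and the order differed between the ways of scaling. The reference channel differed between the genotypes by -0.12 to 0.02 on the log2 scale over the 10 probes, against 0.48 to 2.21 in the sample channel for the 6 genes tested.

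**Figure D2:**
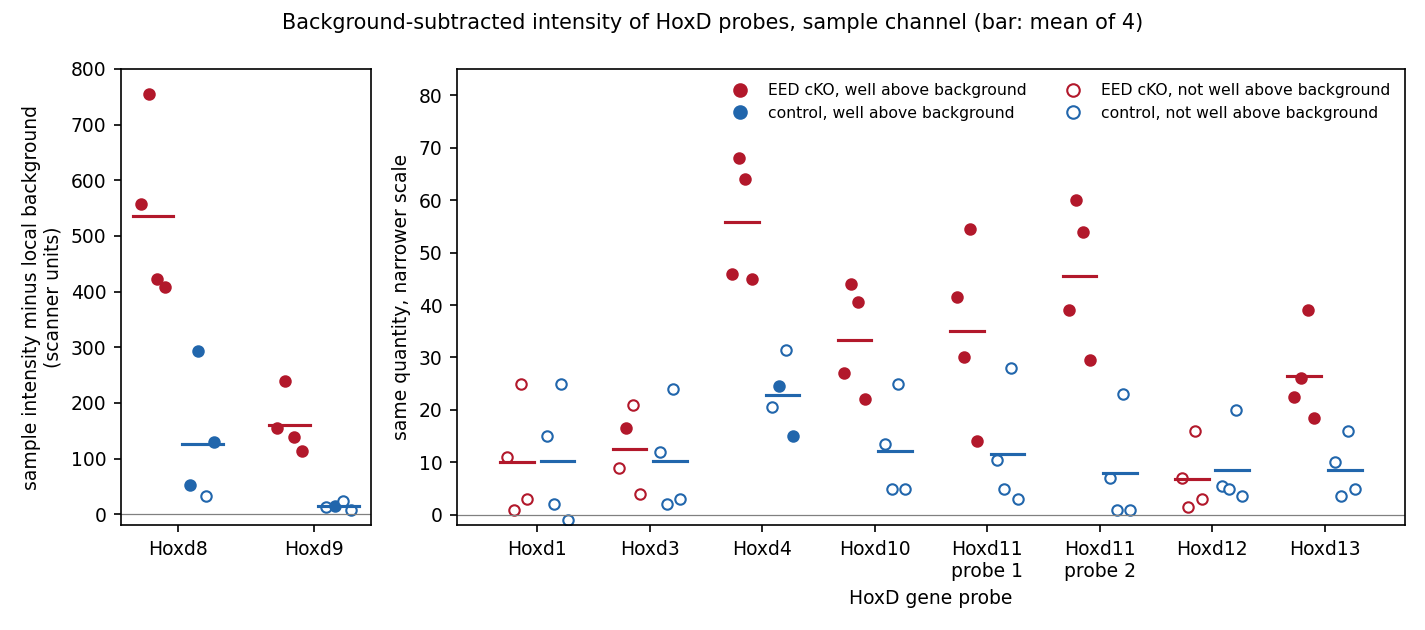
Sample signal minus local background in scanner units (vertical axes) for each HoxD probe on the 4 EED cKO (red) and 4 control (blue) arrays, with a bar at each mean and Hoxd8 and Hoxd9 on a wider scale. Filled points were well above background and open points were not. Hoxd8 reached 409 to 755 units in EED cKO, whereas EED cKO signals of Hoxd10, Hoxd11 and Hoxd13 stayed between 14 and 60 units.

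The size of the dim changes depended on the source of the values. Normexp with an offset of 50 units draws ratios of dim spots toward 0. With the log ratio of the Feature Extraction software, which has its own background subtraction and dye normalization, all 6 genes were past 2-fold. On that scale the log2 fold change was 1.88 for Hoxd4, 3.00 for Hoxd8, 4.99 for Hoxd9, 3.96 for Hoxd10, 2.42 for Hoxd11 and 3.14 for Hoxd13, and the deposited table gave the same 6 calls. With 0 of 4 control arrays well above background for Hoxd10, Hoxd11 and Hoxd13, these larger values rest on control signals not well above background. With no background correction the log2 fold changes of the 6 genes lay between both settings, and Hoxd4, Hoxd10, Hoxd11 and Hoxd13 were not past 2-fold.

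**Figure D3:**
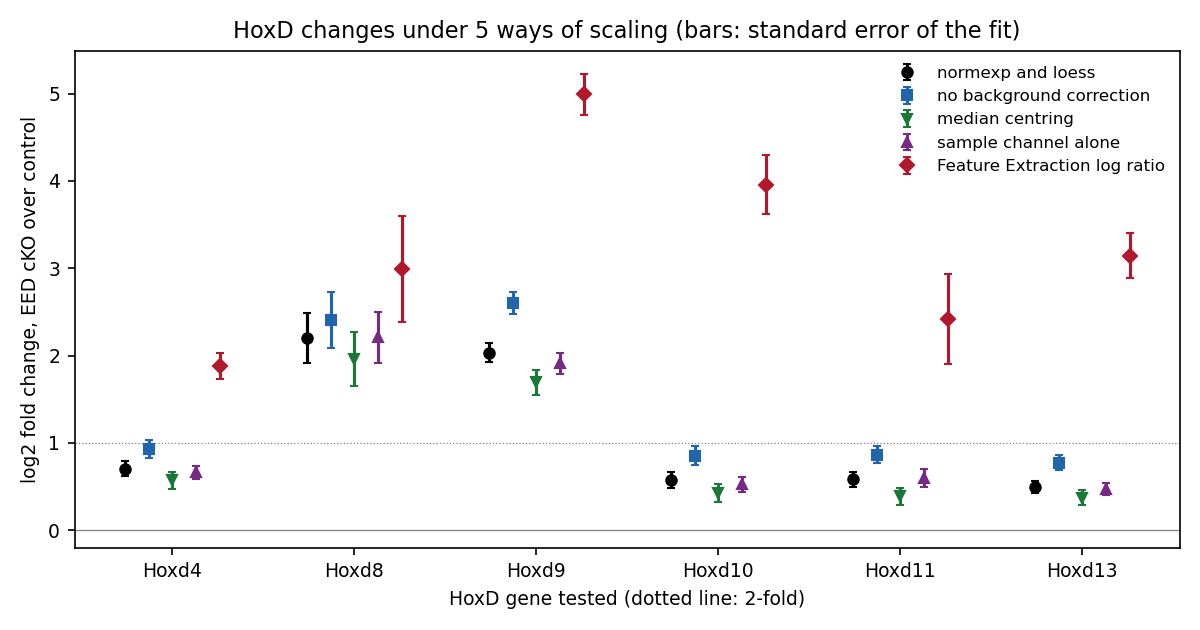
Log2 fold change of EED cKO over control (vertical axis) for the 6 HoxD genes tested (horizontal axis) under 5 ways of scaling, with standard errors of the limma fit and a dotted line at 2-fold. Every value lies above 0, and Hoxd9 ranges from 1.69 with median centring to 4.99 with the Feature Extraction log ratio.

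Non-coding RNAs of the same locus also rose. Hoxd3os1, transcribed from the strand opposite to Hoxd3, had log2 ratios of 1.83, 1.39, 1.53 and 1.67 in EED cKO and -0.18, 0.34, -0.29 and 0.09 in control. The groups did not overlap, and the log2 fold change was 1.62 ± 0.14 (SE, limma adjusted p = 0.000153), or 3.07-fold. In control, Hoxd3os1 was well above background on replicates 2 and 4 only. It thus entered the test only through EED cKO, and its direction was in part fixed by the filter. Haglr, a long non-coding RNA listed between Hoxd4 and Hoxd1, had log2 ratios of 1.01, 0.86, 0.94 and 0.83 in EED cKO and 0.10, 0.26, 0.17 and 0.33 in control, with a 1.62-fold rise (log2 fold change 0.70 ± 0.08 SE, limma adjusted p = 0.000715). Both lie near coding genes, Hoxd3 and Hoxd1, whose probes were not well above background on 7 and 8 of the 8 arrays. Another non-coding RNA of the locus, Gm14424, was well above background on no array.

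Of the genes that flank the cluster, none of those tested was higher at an adjusted p below 0.05. Evx2, the homeobox gene next to Hoxd13, was well above background on no array. Of the 10 flanking genes 7 were tested, 0 were higher by limma and 1 was lower at an adjusted p below 0.05, and their median log2 fold change was -0.00, where 11.8% of all targets tested were higher and 9.95% lower by this rule. At an unadjusted p below 0.05 1 gene, Mtx2, was higher and 2 were lower, and by the methods' t-test after adjustment 0 passed in either direction. The lower gene was Hnrnpa3, which encodes an RNA-binding protein, with a log2 fold change of -0.55 ± 0.15 (SE, limma adjusted p = 0.0319), and 4 of its 7 probes were lower at an adjusted p below 0.05. Mtx2, next to Hoxd1, and Lnpk, beyond Evx2, had log2 fold changes of 0.18 (limma adjusted p = 0.137) and 0.08 (limma adjusted p = 0.537). Atf2, Atp5g3, Nfe2l2 and Agps did not pass the test either, with log2 fold changes from -0.30 to 0.19. Chn1 was not tested, because its brighter probe did not pass the filter. Its other probe passed only through EED cKO, and its groups did not overlap. The log2 fold change of that probe was 0.24 ± 0.08 (SE, limma adjusted p = 0.0601 with each probe fitted on its own).

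The question of whether HoxD genes moved like their paralogues was asked next. In the HoxA, HoxB and HoxC clusters, all 11 genes tested from groups 1 to 5 were lower in EED cKO at an adjusted p below 0.05, 5 of HoxA, 4 of HoxB and 2 of HoxC, where 9.95% of all targets tested were lower by this rule. Hoxd4, the single HoxD gene tested from these groups, was higher, but it entered the test only through EED cKO. Its direction was thus in part fixed by the filter. Its paralogues Hoxa4, Hoxb4 and Hoxc4 had log2 fold changes of -0.32, -0.63 and -1.21, a mean of -0.72, and the difference from Hoxd4 was 1.42, with no overlap of the genotypes (exact permutation test, two-sided, p = 0.0286, 0.0429 after Benjamini-Hochberg adjustment over 6 comparisons). With the arrays paired by replicate number the exact p was 0.125 for this difference and for those of Hoxd8 and Hoxd9 below, the smallest that 4 pairs can give. In groups 9 to 13, 7 of the 9 genes tested from the other clusters were higher at an adjusted p below 0.05. All 4 tested from HoxD in these groups were higher too, and none was lower. By this rule 11.8% of all targets tested were higher and 9.95% lower. All 4 HoxD genes and 4 of those 9, among them Hoxa10, Hoxa11 and Hoxb13, entered the test only through EED cKO, so that their direction was in part fixed by the filter.

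Hoxd8 also stood apart from its paralogues. Hoxb8 and Hoxc8 had log2 fold changes of -0.39 (limma adjusted p = 0.324) and -0.02 (limma adjusted p = 0.898), and Hoxd8 exceeded their mean by 2.41 (exact permutation test, two-sided, p = 0.0286, adjusted 0.0429). Hoxd9 exceeded the mean of Hoxa9, Hoxb9 and Hoxc9 by 0.79 (exact permutation test, two-sided, p = 0.0286, adjusted 0.0429), although Hoxc9 alone had a log2 fold change of 2.24. With the Feature Extraction log ratio the differences were 2.78 for Hoxd4, 3.13 for Hoxd8 and 2.69 for Hoxd9, a setting chosen after seeing the data. For Hoxd10, Hoxd11 and Hoxd13 no difference from the paralogues is given, because these genes were well above background on none of the control arrays, and neither were Hoxa11 and Hoxb13. All 3 still counted in the adjustment over 6 comparisons, and Hoxd13 fell below its paralogues with the same exact permutation p of 0.0286. Hoxd4 and Hoxd9 passed the filter only through EED cKO, so their excess over the paralogues was in part fixed by it. The paralogue comparisons are between changes of different probes, and the offset draws in the changes of the dimmer probes most.

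**Figure D4:**
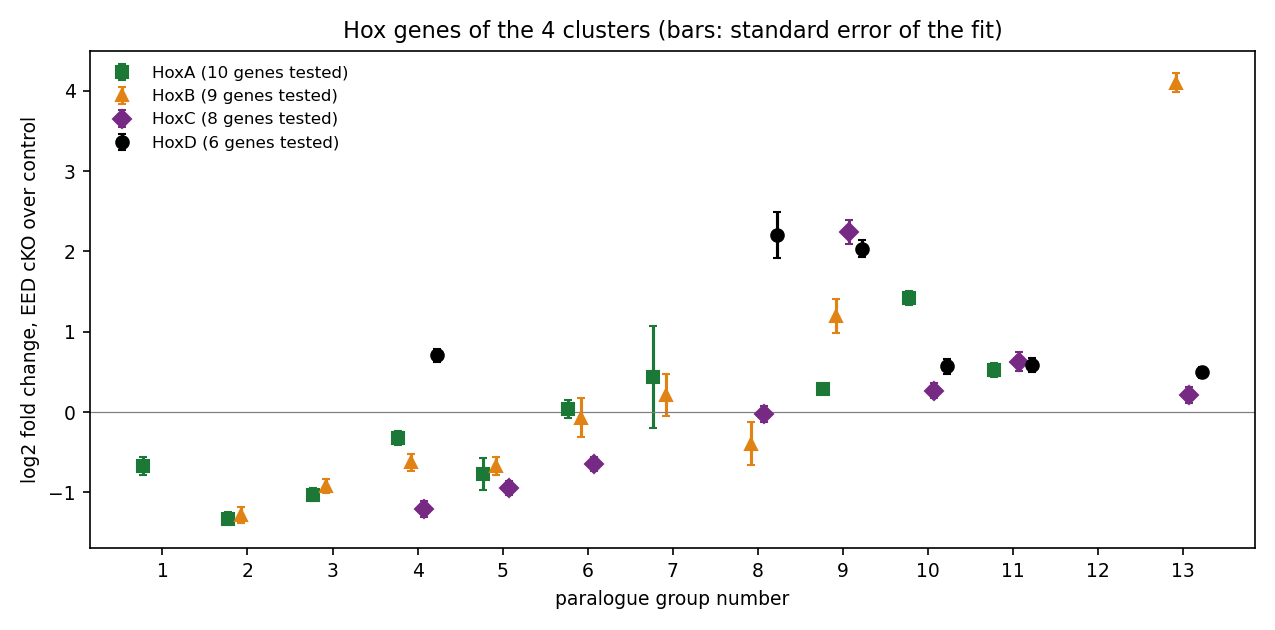
Log2 fold change of EED cKO over control with its standard error (vertical axis) for the 33 tested genes of the HoxA, HoxB, HoxC and HoxD clusters by paralogue group number (horizontal axis). In groups 1 to 5 Hoxd4 is the only value above 0, and in groups 9 to 13 all values are above 0, up to 4.10 for Hoxb13, which was not well above background on any control array.

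The spread of Hoxd8 among the controls was shared by genes of other clusters. Of the 33 Hox genes tested, 7 had a range above 1 among the 4 controls. The median range of all targets tested was 0.36. How many of all targets had a range above 1, or the order of controls given next, was not counted. Neither trait can therefore be called particular to Hox genes. These 7, chosen after their values were seen, were Hoxd8, Hoxa5, Hoxa7, Hoxb6, Hoxb7, Hoxb8 and Hoxb9, and in each of them control replicate 2 was highest and control replicate 3 lowest. Hoxa7, with the widest range, had log2 ratios of 1.78, 2.56, -1.22 and 2.39 in control and 1.94, 1.73, 2.04 and 1.55 in EED cKO. Y-linked RNA was high in control replicates 2 and 3, with mean log2 ratios of 1.19 and 1.02, and between -1.51 and -1.31 on the other 6 arrays, so the highest and the lowest control of these Hox genes were the 2 arrays with Y-linked RNA. With the Y-linked level as a covariate, chosen after seeing the data, the log2 fold change was 2.27 for Hoxd8 and 2.04 for Hoxd9 (limma adjusted p = 0.00512 and 7.14e-05).

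**Figure D5:**
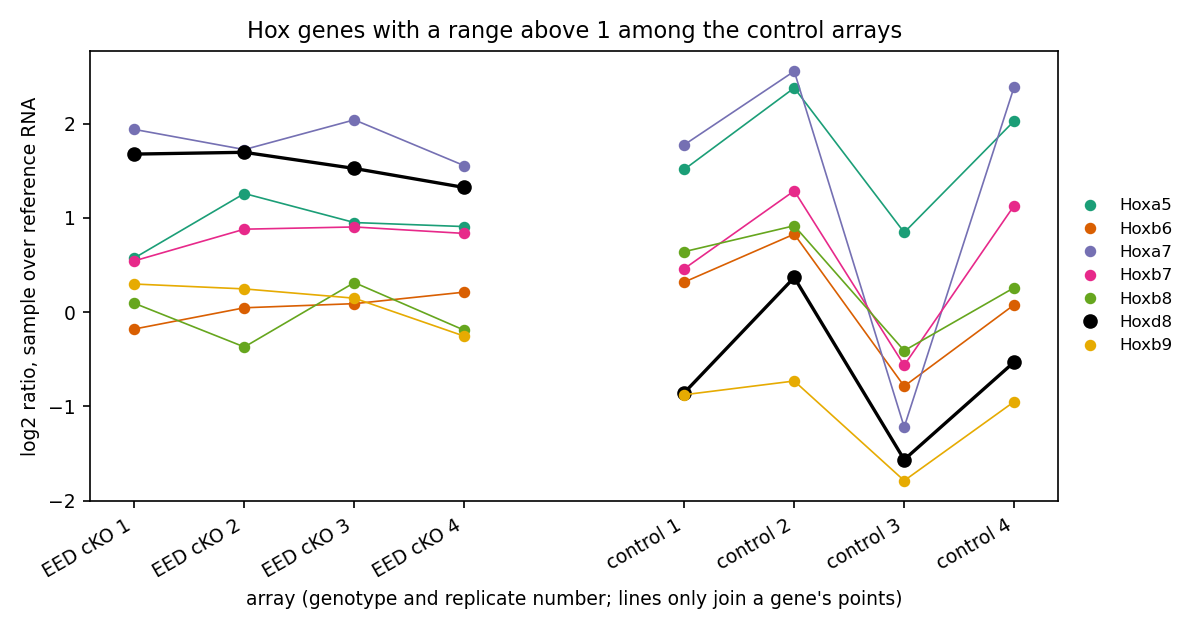
Log2 ratio of sample over reference RNA (vertical axis) on each of the 8 arrays (horizontal axis) for the 7 Hox genes that ranged over more than 1 among the control arrays, with Hoxd8 in black. All 7 genes are lowest in control replicate 3 and highest among the controls in replicate 2, whereas the 4 EED cKO arrays of Hoxd8 stay between 1.32 and 1.70.

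Outside the Hox clusters, the 3 genes whose pattern over the 8 arrays was most like that of Hoxd8 were Krt12, a keratin, Calml4 and Cdc42ep3. Their root-mean-square differences from Hoxd8, each gene taken relative to its control mean, were 0.35, 0.51 and 0.52 on the log2 scale. For Hoxd9 they were Atp1b1, which encodes the beta subunit of the sodium pump, Akr1c18 and Gm5476, with 0.19, 0.20 and 0.24. Hox proteins bind DNA together with cofactors of the Pbx, Meis and Pknox families. Among the cofactor genes reported here, Meis1 and Meis3 were higher, with log2 fold changes of 0.58 (limma adjusted p = 0.0407) and 0.28 (limma adjusted p = 0.0212), and Pbx3 was lower, with -0.36 (limma adjusted p = 0.0209). All 3 changes were below 2-fold. The list held 9 cofactor genes, all tested. Of all targets tested, 11.8% were higher and 9.95% lower at an adjusted p below 0.05.

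Genes of the Polycomb complexes and of enzymes that counter them were counted alongside, where 11.8% of all targets tested were higher and 9.95% lower at an adjusted p below 0.05. Of 12 PRC2 genes tested 5 were lower and 1, Epop, an accessory subunit, was higher at an adjusted p below 0.05, and Eed alone was past 2-fold. Of 19 genes of Polycomb repressive complex 1 (PRC1), 4 were higher and 7 lower, with Bmi1 past 2-fold (log2 fold change 1.11 ± 0.11 SE, limma adjusted p = 0.000281). Of 4 genes for H3K27 demethylases and MLL methyltransferases tested, 2 were lower and none higher, also at an unadjusted p below 0.05, and by the methods' t-test after adjustment 0 passed in either direction.

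Markers of other cells in the peeled epidermis were compared between the genotypes as well. Of all targets tested, 11.8% were higher and 9.95% lower at an adjusted p below 0.05. The mean log2 ratio of 12 dermal fibroblast genes was -2.45 to -2.38 in EED cKO and -2.47 to -2.15 in control, with 2 genes higher and 2 lower at an adjusted p below 0.05, and all 12 were detected on at least 1 array. The 6 Merkel cell genes all passed the test as higher, but Atoh1, Isl1 and Sox2 entered it only through EED cKO. The mean log2 ratio of the 6 was -0.95 to -0.82 in EED cKO against -1.67 to -1.53 in control. The 3 endothelial genes tested had a mean of 0.66 to 1.00 in EED cKO and 0.18 to 0.42 in control, with Pecam1 and Kdr higher, while the defining genes Cdh5 and Tek were well above background on no array. Of 5 immune genes tested 2 were higher, with means of -1.07 to -0.55 in EED cKO and -1.24 to -0.91 in control. The part of Merkel, endothelial or immune cells in the HoxD changes was not tested.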

How the data were processed

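Newborn epidermal RNA, 4 samples per genotype, was profiled on 8 two-color Agilent mouse arrays against a reference RNA, with groups, replicate numbers and dyes taken from the sample labels. The authors deposited, per array, Agilent Feature Extraction 12.0.1.1 output with spot and background intensity and a log10 ratio of the dyes, and a table of log2 ratios. The deposited log2 values were turned to sample over reference with no centring (column medians 0.03 to 0.14, within 1e-04 of the processed-signal ratio for 100% of probes with 1 spot). Here the median spot intensity was corrected by normexp (offset 50), control and outlier-flagged spots (171 to 249 per array) were left out, and each array was normalized by loess. Precision is limited by the 8 arrays.

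Of 29796 probes named by RefSeq accession 28026 matched a symbol. The probe brightest over both channels stood for a gene, and 23139 of 36799 targets passed the filter, a sample signal well above background on 3 of 4 arrays of a genotype. In the sample channel 51.5% to 65.5% of spots were well above background and 0 were saturated. R 4.3.3 with limma 3.58.1 (genotype plus dye) and Benjamini-Hochberg adjustment gave the tests, and the p-values measure the spread between these arrays. On data simulated with 200 genes changed 3-fold, in 2 runs, the fit recovered nearly all changed genes. Smaller changes, such as those of Hoxd4, Hoxd10, Hoxd11 and Hoxd13, were not simulated. Promoter sequences are RefSeq's (GRCm38.p6). Probe coordinates are not printed because the design used another build.

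The members, the lists and the rule for named genes were chosen with earlier results of these data known. The rule took all HoxD members with every probe, the genes and non-coding RNAs of the locus, the other Hox genes by cluster and group, cofactor and Polycomb lists, markers of 9 cell types and, for each changed member, the 3 genes of most similar pattern. Flg, Kmt2a, Hbb-bs, Hotdog and Tog were not analysed here. The result of 1 gene of the lists is not reported here. Of other markers, 2 skeletal muscle, 6 melanocyte, 2 erythroid and 4 Schwann cell and neuron genes were tested. They gave 0 genes higher and 1 gene lower at an adjusted p below 0.05. By this rule 11.8% of all targets tested were higher and 9.95% lower. Deviations from the group means were shared by samples of equal replicate number (correlations 0.49, 0.68, 0.33 and 0.36 across targets, and 0.13 and 0.46 with the dye removed), and the number also marks the slide column and the dye. The alternatives were other background corrections, scalings, filters, probe summaries, variance models and tests, the replicate block, each dye alone and each array left out.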

Additional observations from a re-analysis of the deposited data

Results flagged for a closer look

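The second probe of Hoxd11 was set apart by 1 array. In EED cKO replicate 2 its log2 ratio was 1.26, and the gap to the next EED cKO array was 0.875 of the range of the 4 arrays, above Dixon's 95% limit for 4 samples. The 10 HoxD probes gave 20 groups of 4, and about 1 in 20 such groups passes this limit by chance. With each array left out in turn, this one included, the log2 fold change of the first probe was 0.53 to 0.65. The second probe was not refitted in this way, so how far this array drives its change was not tested.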

How the results depend on the processing

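Each of the 6 HoxD genes tested kept its direction under all 28 alternatives. Hoxd8 ranged from 1.59 to 3.00 and Hoxd9 from 1.69 to 4.99 on the log2 scale, and both stayed past the threshold under all 28. The count of HoxD genes past the threshold was 6 with the Feature Extraction log ratio, 6 with the deposited log2 table and 6 with no fold limit, in place of 2. At any fold, Hoxd10 and Hoxd13 missed an adjusted p of 0.05 within the arrays with the sample in Cy3 and by the methods' t-test after Benjamini-Hochberg adjustment (t-test adjusted p = 0.0505 and 0.0585), Hoxd11 by that t-test alone (0.062) and Hoxd4 within the Cy3 arrays alone (0.0646). Over all targets, the higher and lower counts were 593 and 106 with the Feature Extraction log ratio, 592 and 106 with the deposited table, 156 and 56 with median centring (73.6% of calls higher, in place of 91.7%), 165 and 9 by the methods' t-test after adjustment, 252 and 23 by that test at its own threshold, and 2727 and 2303 with no fold limit. Within the arrays with the sample in Cy5, 75 were lower. With each array left out in turn the higher count was 220 to 291, the lower count 14 to 40 and the HoxD counts 2 and 0. Without EED cKO replicate 2 the lower count was 40, and it was 14 when control replicate 2 and 36 when control replicate 4 was left out. With the replicate block the counts were 256 and 23, Hoxd8 was 2.20 (adjusted p = 0.00147) and Hoxd9 2.03 (adjusted p = 3.03e-05), and the block changed no limma call of a HoxD gene. In the permutation tests the replicate block, chosen after seeing the data, left the differences from the paralogues (1.42 for Hoxd4, 2.41 for Hoxd8, 0.79 for Hoxd9) at an exact p of 0.125, which cannot pass the threshold with 4 pairs. The cause of these shifts was not tested. Dim signals limit what can be said of Hoxd1, Hoxd3 and Hoxd12, and of the size of change of Hoxd10, Hoxd11 and Hoxd13.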
